A study of Mus musculus with 12 samples.

Results

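The genes described here are 42 proliferation genes: 27 that act in mitosis or mark it, and 15 that act in S phase, the stage in which DNA is copied. They were chosen by symbol, and every probe whose design name or current RefSeq symbol is one of them was taken, which gave 70 probes among the 41174 of an array that names 28783 genes or transcripts. Where several probes read a gene, the one with the highest mean level over all arrays stands for it. Of the 42 genes, 36 passed the filter and were tested, 23 of the mitotic and 13 of the S-phase genes: a probe had to be well above background on 4 or more of the 12 arrays.

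The samples are 12 liver RNAs, each on its own one-colour Agilent array, from male C57BL/6 mice, 3 months old, whose livers lack GR, the glucocorticoid receptor. Of these, 4 came from knockout livers given AAV-hGRB, an adeno-associated virus named for the human beta form of GR, 4 from knockout livers given the AAV-GFP control virus, and 4 from knockout livers given PBS, the saline control without virus. All 3 groups share the liver knockout, so no comparison here bears on the loss of GR itself. The labels give neither the promoter nor the dose of the viruses, nor how the knockout was made, and do not say that every sample is an animal of its own. With 4 samples per group, a p-value then speaks only of the spread among samples, which may be technical.

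Most hepatocytes of an adult liver rest outside the cell cycle, and they re-enter it after injury or loss of tissue. On entry, E2F factors and cyclin E switch on the enzymes of DNA synthesis, and the MCM helicase is loaded on the chromosomes by Cdc6. Later the MuvB complex, with B-Myb and Foxm1, turns on a second wave of genes for the spindle, the kinetochores and cytokinesis. Many of these genes carry a cell cycle homology region (CHR) and CCAAT boxes near their start sites.

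The start-site sequences of the genes on which the results turn are shown because this wiring is known to separate the mitotic from the S-phase genes. They come from RefSeq on the build GRCm38.p6, from 100 bases before to 30 bases after the start site, read 5′ to 3′ on the strand of the gene. Capitals mark the CHR letters TTTGAA or TTCGAA, the CCAAT box and the E2F letters TTTGGCGC or TTTCGCGC or TTTGCCGC or TTTCCCGC, each searched on both strands, with overlaps between motifs allowed. The windows lie at chr7:135716350-135716479 (minus strand) for Mki67, chr7:122159335-122159464 (plus) for Plk1 and chr4:118437314-118437443 (minus) for Cdc20. Those of Spag5, Top2a and Ccnb1 lie at chr11:78301491-78301620 (plus), chr11:99024160-99024289 (minus) and chr13:100786457-100786586 (minus). The S-phase windows are chr12:24708154-24708283 (plus) for Rrm2, chr1:128359676-128359805 (minus) for Mcm6 and chr11:117825985-117826114 (minus) for Tk1.
Mki67: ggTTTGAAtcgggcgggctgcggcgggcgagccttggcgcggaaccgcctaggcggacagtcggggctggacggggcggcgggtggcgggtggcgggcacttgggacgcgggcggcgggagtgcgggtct
Plk1: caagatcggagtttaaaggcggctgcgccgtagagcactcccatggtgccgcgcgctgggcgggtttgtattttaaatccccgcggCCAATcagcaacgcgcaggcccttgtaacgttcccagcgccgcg
Cdc20: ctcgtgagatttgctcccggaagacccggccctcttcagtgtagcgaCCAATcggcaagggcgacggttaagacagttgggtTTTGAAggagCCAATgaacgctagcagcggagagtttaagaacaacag
Spag5: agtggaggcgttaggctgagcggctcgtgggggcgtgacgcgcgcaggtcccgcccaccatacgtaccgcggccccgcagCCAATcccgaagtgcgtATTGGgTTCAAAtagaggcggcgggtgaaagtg
Top2a: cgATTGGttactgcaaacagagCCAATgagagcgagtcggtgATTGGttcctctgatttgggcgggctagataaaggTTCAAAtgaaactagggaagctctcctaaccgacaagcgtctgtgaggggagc
Ccnb1: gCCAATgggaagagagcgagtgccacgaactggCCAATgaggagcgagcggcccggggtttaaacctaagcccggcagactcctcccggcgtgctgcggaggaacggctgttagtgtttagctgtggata
Rrm2: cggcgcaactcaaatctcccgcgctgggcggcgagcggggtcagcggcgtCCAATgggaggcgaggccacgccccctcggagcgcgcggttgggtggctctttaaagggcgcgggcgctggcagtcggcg
Mcm6: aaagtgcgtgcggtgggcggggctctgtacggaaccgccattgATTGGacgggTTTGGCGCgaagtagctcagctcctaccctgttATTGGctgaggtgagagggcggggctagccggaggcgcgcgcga
Tk1: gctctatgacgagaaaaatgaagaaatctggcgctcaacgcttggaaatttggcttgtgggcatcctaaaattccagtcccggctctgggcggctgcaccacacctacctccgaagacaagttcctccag

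Of the 42 genes, 35 had such a window, and a gene with more than 1 window counts if any of them holds the motif. CHR letters stood in 14 of 22 mitotic genes and in 1 of 13 S-phase genes (Mcm2), beside 7.65% of all 32851 windows of this length. Counted from the start site, they begin at position -18 in Cdc20, at -98 in Mki67 and, on the opposite strand, at 4 in Spag5 and -23 in Top2a. The windows of Plk1 and Ccnb1 hold CCAAT boxes without CHR letters, and that of Tk1 holds none of the 3 motifs. The CCAAT box stood in 18 of 22 mitotic and 7 of 13 S-phase genes, against 21.7% of all windows. E2F letters were found in 3 S-phase genes, Mcm3, Mcm6 and Mcm7, and in 0 of the 22 mitotic genes, against 1.12% of all windows. These are counts of letters in a short window, not of bound sites.

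Levels are log2 processed signal minus the 75th percentile of the array, so that 0 is a probe at that percentile. Levels of different genes come from different probes and are not set against each other. All 9 hepatocyte markers on the array were well above background on all 12 arrays. The replicate 3 array of AAV-GFP stood apart: its median correlation with the other arrays was 0.927, while that of the other 11 arrays lay between 0.966 and 0.982. The set medians are given with and without it, and so is each log2 change of a member printed here that it moved by over 1.5 times or turned in sign. The arrays lie on 6 slides, and only some slides hold more than 1 group, so the set medians are also given by slide. Over all 26592 tested probes, 0 passed an adjusted p of 0.05 (limma, Benjamini-Hochberg) in each of the 3 comparisons, and an unadjusted p under 0.05 was found for 892 probes between the virus groups, for 448 between AAV-GFP and PBS, and for 1553 between AAV-hGRB and PBS.

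The mean level of the mitotic genes was higher in both virus groups than in PBS livers, with overlap between the groups, and no single gene passed the adjusted threshold. Their mean log2 level was -2.30, -1.94, -1.96 and -2.50 on the 4 AAV-hGRB arrays, -2.05, -1.92, -2.10 and -2.60 on the AAV-GFP arrays, and -2.96, -2.60, -2.78 and -2.27 on the PBS arrays. The groups overlapped: PBS replicate 4 lay above AAV-hGRB replicates 1 and 4 and above AAV-GFP replicate 4, and AAV-GFP replicate 4 lay at the level of PBS replicate 2. On the other 3 PBS arrays, 3 of the 23 genes each were above their own mean over 12 arrays, and on PBS replicate 4, 14 were.

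**Figure D1:**
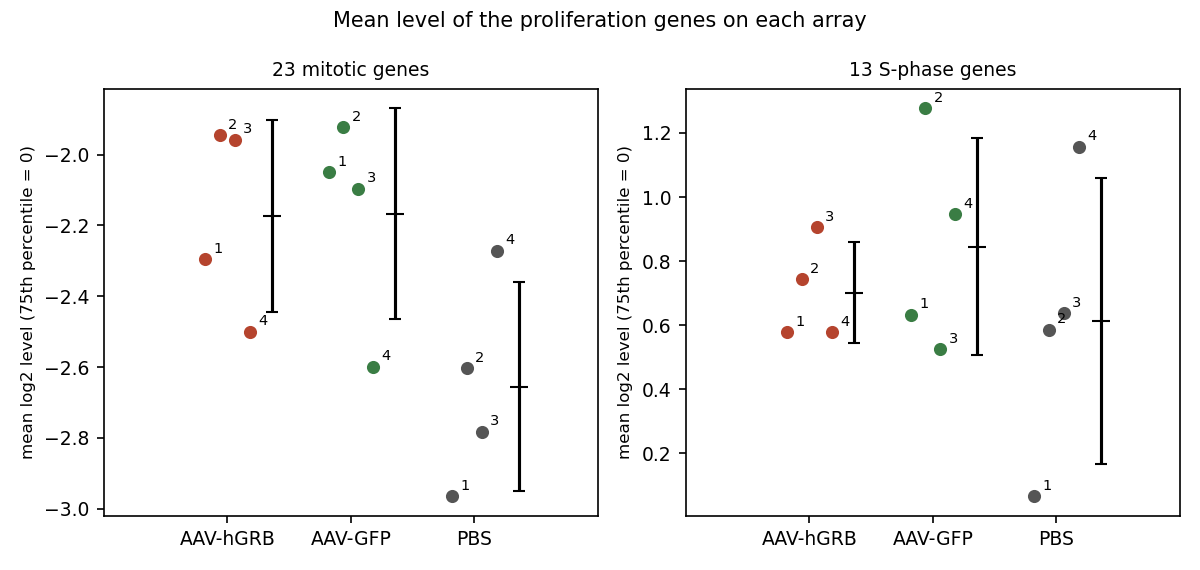
Mean log2 level over the 23 tested mitotic genes (left) and the 13 tested S-phase genes (right) on each array, as points with replicate numbers, and the mean and SD of each group of 4 as bars. The mitotic means of AAV-hGRB lie between -2.50 and -1.94 and those of PBS between -2.96 and -2.27, with PBS replicate 4 highest of its group, while the S-phase means of the 3 groups overlap throughout.

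In AAV-GFP against PBS livers all 23 mitotic genes had a positive log2 change, with a median of 0.47 (1.39-fold) and a range from 0.02 (Kif23) to 1.18 (Spag5), while the median over all tested probes was 0.00 and 50.6% of probes were positive. None passed the adjusted threshold, as 0% of all probes did, and adjusted p was 0.999 for the lowest (limma). An unadjusted p under 0.05 with a higher level was found for 4 of the 23 genes, Mki67, Foxm1, Cdc20 and Spag5, against 0.793% of all probes, and with a lower level for 0, against 0.891%. The count of 4 rested on single arrays: it was 10 without PBS replicate 4, 9 without AAV-GFP replicate 4 and 1 without PBS replicate 1. Over all probes 211 were higher at that p with all arrays, and 158, 274 and 110 in these fits. The mitotic count was 2 without any one of PBS replicates 2 and 3, AAV-GFP replicate 2 and AAV-hGRB replicates 1 and 2. No mitotic gene had groups that did not overlap, against 0.94% of all probes. The genes share the same 8 arrays and move together on them, so their number is not a number of independent observations.

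In AAV-hGRB against PBS livers 22 of the 23 were positive, with a median of 0.48 (1.39-fold), from -0.61 (Ccnb1) to 1.00 (Plk1), where the median over all probes was -0.06 and 42.8% of probes were positive. None passed the adjusted threshold, as 0% of all probes did, and the lowest adjusted p among the mitotic genes was 0.821 (limma). Unadjusted p was under 0.05 with a higher level for 6 genes, Mki67, Top2a, Bub1b, Plk1, Spag5 and Cenpe, against 2.86% of all probes, and with a lower level for 0, against 2.98%. Bub1b was well above background on 0 PBS arrays and passed the filter only through the virus groups, which leaves 5 genes without it. The count of 6 was 1 without AAV-hGRB replicate 3, 2 without PBS replicate 3 and 3 without AAV-hGRB replicate 2. Over all probes 760 were higher at that p with all arrays, and 705, 874 and 456 in these fits. The groups of no mitotic gene were free of overlap, against 4.59% of probes. Both comparisons use the same PBS arrays, so their values stand side by side and neither counts as support for the other.

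Between AAV-hGRB and AAV-GFP livers the mitotic genes had a median log2 change of 0.02, with 14 positive and 9 negative, from -0.78 (Ccnb1) to 0.53 (Top2a), beside a median of -0.05 over all probes. None passed the adjusted threshold, the share of all probes being 0%. None had an unadjusted p under 0.05 in either direction, against 1.84% of probes higher and 1.51% lower. Intervals were wide, as in Mki67, where the change of 0.16 had a 95% interval from -0.53 to 0.85. RNA of whole liver was measured, so fewer cells of a type and less RNA per cell cannot be told apart.

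Without AAV-GFP replicate 3 the mitotic median was 0.43 for AAV-GFP over PBS, with 22 genes positive, and -0.03 for AAV-hGRB over AAV-GFP. Leaving out any single array gave 0.40 to 0.64 for AAV-GFP over PBS, 0.38 to 0.59 for AAV-hGRB over PBS, and -0.22 to 0.15 between the virus groups. These medians kept their sign in both comparisons with PBS. Within slides, AAV-GFP minus PBS was 0.61, 0.41 and 0.79 on slides 1, 5 and 6, with 21, 18 and 21 of 23 genes positive. AAV-hGRB minus PBS was 0.05 on slide 5, where 13 genes were positive, and 0.96 on slide 6, where 21 were. The slide 5 value sets AAV-hGRB replicate 1 against PBS replicate 4, the highest PBS array. AAV-hGRB minus AAV-GFP was -0.45 on slide 5 and 0.08 on slide 6. With slide as a block the median was 0.57 for AAV-GFP over PBS, 0.44 for AAV-hGRB over PBS and -0.26 between the virus groups.

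**Figure D2:**
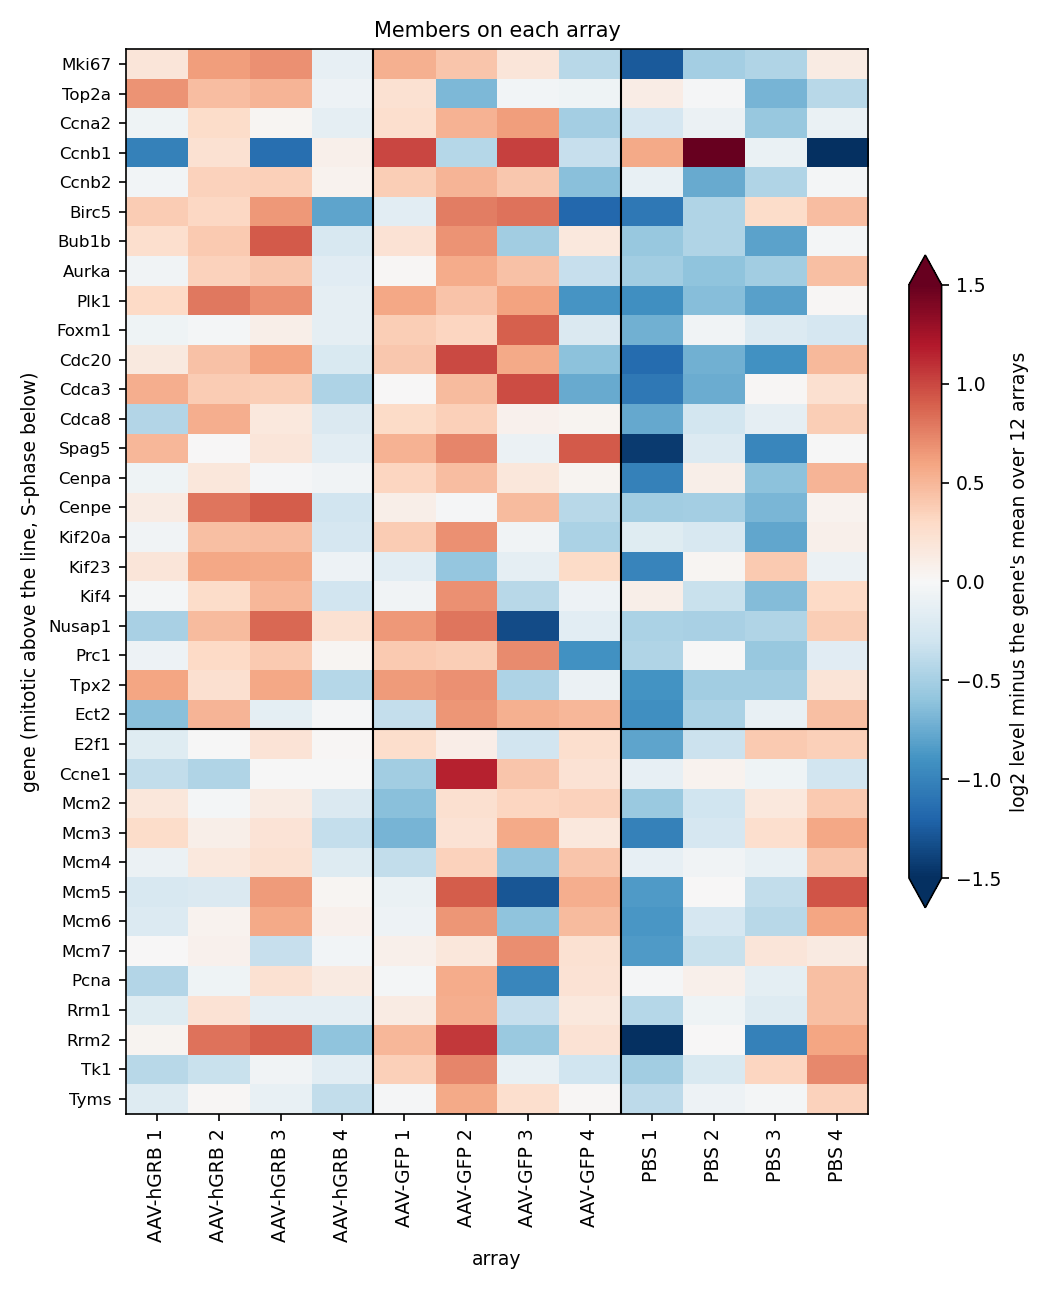
Each row is a tested member and each column an array, and the colour is the log2 level minus the mean of that gene over 12 arrays, from -1.5 (blue) to 1.5 (red). PBS replicates 1 to 3 are mostly blue among the 23 mitotic genes above the black line, and PBS replicate 4 is not. Ccnb1 varies most from array to array.

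Among the regulators, Mki67, the Ki-67 antigen that coats mitotic chromosomes and is the usual marker of cycling cells, had log2 levels of -1.25, -0.80, -0.74 and -1.55 in AAV-hGRB livers, -0.89, -1.02, -1.24 and -1.84 in AAV-GFP livers, and -2.69, -1.94, -1.87 and -1.30 in PBS livers. In each virus group 3 of 4 arrays lay above every PBS array. Over PBS its difference was 0.87 (SE 0.32, 1.83-fold, adjusted p = 0.821, limma) in AAV-hGRB livers and 0.70 (SE 0.32, 1.63-fold, adjusted p = 0.999) in AAV-GFP livers. A second Mki67 probe gave 0.86 and 0.87, and without AAV-GFP replicate 3 the AAV-GFP value was again 0.70. Between the virus groups the second probe gave -0.01, against 0.16 for the first.

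Foxm1, the factor that drives the late cell cycle genes, had -3.18, -3.15, -3.04 and -3.26 in AAV-hGRB livers, -2.76, -2.80, -2.22 and -3.34 in AAV-GFP livers, and -3.85, -3.18, -3.33 and -3.37 in PBS livers. Its mean was highest in AAV-GFP livers, with replicate 3 at the top. Over PBS the difference was 0.28 (SE 0.24, adjusted p = 0.954, limma) in AAV-hGRB livers and 0.65 (SE 0.24, adjusted p = 0.999) in AAV-GFP livers, or 0.47 without that array.

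Plk1, the polo-like kinase of mitotic entry and spindle assembly, had -2.09, -1.61, -1.71 and -2.53 in AAV-hGRB livers, -1.82, -1.97, -1.79 and -3.27 in AAV-GFP livers, and -3.32, -3.04, -3.21 and -2.37 in PBS livers. In each virus group 3 of 4 arrays lay above every PBS array, and AAV-GFP replicate 4 lay within the PBS range. Its difference over PBS was 1.00 (SE 0.36, interval 0.22 to 1.78, adjusted p = 0.821, limma) in AAV-hGRB livers and 0.77 (SE 0.36, adjusted p = 0.999) in AAV-GFP livers. For Aurka, the kinase of the spindle poles, the levels were -0.99, -0.60, -0.54 and -1.11 in AAV-hGRB livers, -0.92, -0.39, -0.51 and -1.29 in AAV-GFP livers, and -1.46, -1.55, -1.47 and -0.49 in PBS livers. PBS replicate 4 lay well above the other PBS arrays. The Aurka difference over PBS was 0.43 in AAV-hGRB livers and 0.47 in AAV-GFP livers, with an SE of 0.29 each.

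Among the spindle checkpoint genes, Bub1b, the BubR1 kinase that delays anaphase, was well above background on 2 AAV-hGRB, 3 AAV-GFP and 0 PBS arrays. The 4 PBS arrays were set to the lowest signal well above background on each, or to their own value if higher. With this setting, the mean level over 4 arrays was 1.26-fold higher in AAV-hGRB and 1.10-fold higher in AAV-GFP livers. The virus arrays kept their own values, also where not well above background, so these folds are not minima. They take no account of the spread. Bub1b passed the filter only through the virus groups, so its folds are no support for a difference. The groups overlapped, with AAV-hGRB replicate 4 (-4.80) and AAV-GFP replicate 3 (-5.09) below PBS replicate 4 (-4.59). Its measured means were -4.23 in AAV-hGRB livers, -4.44 in AAV-GFP livers and -5.03 in PBS livers, with limma's adjusted p of 0.825 in AAV-hGRB against PBS. The kinases Aurkb, Bub1 and Ttk and the spindle motor Kif11 were well above background on no array with the brightest probe, and no change is given for them.

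Cdc20, the activator of the anaphase-promoting complex, had -0.29, -0.00, 0.16 and -0.67 in AAV-hGRB livers, -0.03, 0.56, 0.13 and -1.05 in AAV-GFP livers, and -1.59, -1.15, -1.35 and 0.05 in PBS livers. PBS replicate 4 lay among the virus arrays. The difference over PBS was 0.81 (SE 0.40, adjusted p = 0.866, limma) in AAV-hGRB livers and 0.91 (SE 0.40, 1.88-fold, adjusted p = 0.999) in AAV-GFP livers, or 0.84 without AAV-GFP replicate 3.

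Of the mitotic cyclins, Ccna2, which pairs with Cdk2 and Cdk1 in S phase and early mitosis, had -2.18, -1.84, -2.08 and -2.24 in AAV-hGRB livers, -1.86, -1.58, -1.48 and -2.62 in AAV-GFP livers, and -2.36, -2.20, -2.67 and -2.21 in PBS livers. In each virus group 3 of 4 Ccna2 values lay above all PBS arrays, and AAV-GFP replicate 4 lay below 3 PBS arrays. Its difference over PBS was 0.28 in AAV-hGRB livers and 0.47 in AAV-GFP livers, with an SE of 0.25. For Ccnb2, another partner of Cdk1, the values were 0.51 and 0.50.

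Ccnb1, the cyclin partner of Cdk1 at mitotic entry, had -4.78, -3.54, -4.89 and -3.69 in AAV-hGRB livers, -2.76, -4.19, -2.73 and -4.11 in AAV-GFP livers, and -3.19, -2.03, -3.86 and -5.38 in PBS livers. The PBS arrays alone spanned more than 3 log2 units, and only 8 of 12 arrays were well above background. It was the only mitotic gene with a negative change in AAV-hGRB against PBS, -0.61 with an SE of 0.64 and an interval from -2.0 to 0.77.

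**Figure D3:**
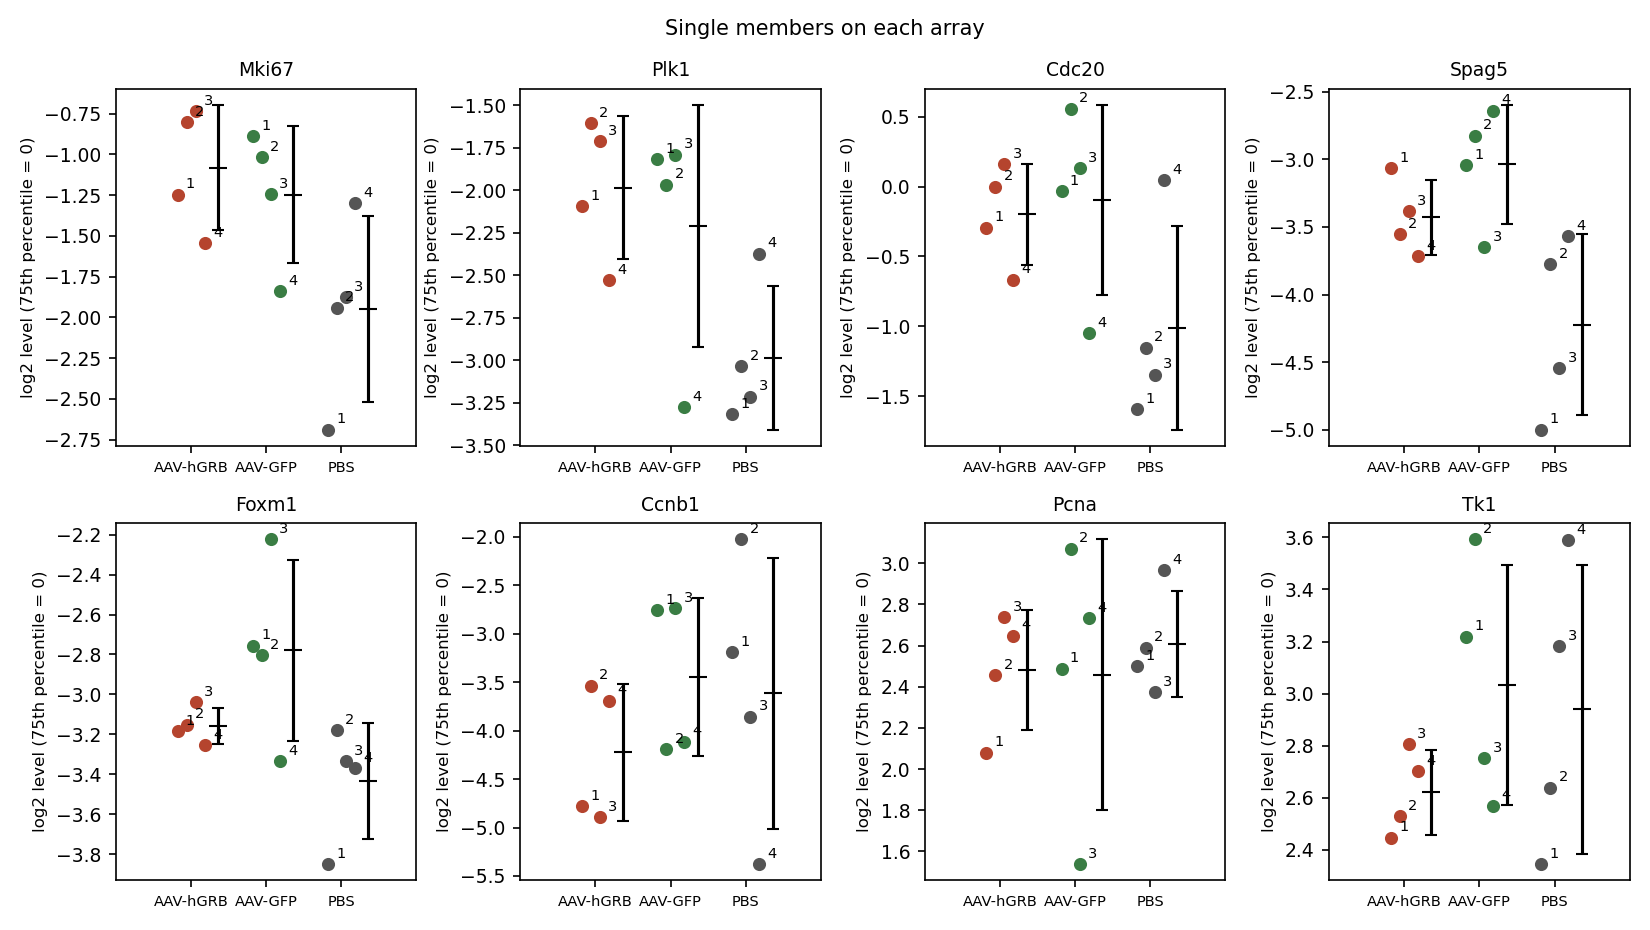
Log2 level of 8 members on each array, as points with replicate numbers, with the mean and SD of each group of 4 as bars. In Mki67 and Plk1, 3 of the 4 AAV-hGRB arrays lie above every PBS array. Pcna and Tk1 overlap between all groups.

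Of the chromosomal passenger complex, which corrects kinetochore attachments, Birc5 (survivin) had 0.26, 0.19, 0.53 and -0.91 in AAV-hGRB livers, -0.28, 0.65, 0.70 and -1.29 in AAV-GFP livers, and -1.19, -0.57, 0.15 and 0.35 in PBS livers. Each group spanned more than a log2 unit, and the differences over PBS were 0.33 in AAV-hGRB livers and 0.26 in AAV-GFP livers, with an SE of 0.49 each. The AAV-GFP value was 0.0067 without replicate 3. Cdca8 (borealin) stood at 0.22 in AAV-hGRB and 0.39 in AAV-GFP livers over PBS, with an SE of 0.27. A second Cdca8 probe disagreed in sign between AAV-hGRB and AAV-GFP, 0.74 against -0.17 for the brightest. Over PBS the second probe gave 0.75 in AAV-hGRB and 0.01 in AAV-GFP livers.

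At the spindle and kinetochore, Spag5 (astrin), which holds kinetochore fibres and spindle poles together, had -3.07, -3.55, -3.38 and -3.72 in AAV-hGRB livers, -3.04, -2.82, -3.65 and -2.64 in AAV-GFP livers, and -5.00, -3.77, -4.54 and -3.57 in PBS livers. Here 3 of 4 arrays of each virus group exceeded all PBS arrays. Its difference over PBS was 0.79 (SE 0.33, adjusted p = 0.837, limma) in AAV-hGRB livers and 1.18 (SE 0.33, 2.27-fold, adjusted p = 0.999) in AAV-GFP livers, the largest of the 36 tested members in the 3 comparisons. It was 1.38 without AAV-GFP replicate 3. Spag5 was well above background on 4 AAV-hGRB, 3 AAV-GFP and 2 PBS arrays.

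Cenpe, the kinetochore motor that moves chromosomes to the spindle equator, had -1.83, -1.15, -1.04 and -2.23 in AAV-hGRB livers, -1.86, -1.97, -1.48 and -2.37 in AAV-GFP livers, and -2.48, -2.46, -2.64 and -1.90 in PBS livers. In AAV-hGRB livers 3 of 4 arrays exceeded all PBS arrays. The difference over PBS was 0.81 (SE 0.30, 1.75-fold, adjusted p = 0.822, limma) in AAV-hGRB livers and 0.45 (SE 0.30, adjusted p = 0.999) in AAV-GFP livers. For Cenpa, the histone variant of centromeres, it was 0.27 in AAV-hGRB livers and 0.51 in AAV-GFP livers.

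Kif23, a kinesin of the central spindle, had -3.60, -3.19, -3.21 and -3.85 in AAV-hGRB livers, -3.94, -4.35, -3.91 and -3.49 in AAV-GFP livers, and -4.76, -3.74, -3.39 and -3.87 in PBS livers. The AAV-GFP and PBS groups overlapped closely, and the difference over PBS was 0.48 in AAV-hGRB livers and 0.02 in AAV-GFP livers. A second, dimmer Kif23 probe, well above background on 4 arrays, gave 1.09 and 0.55. The other spindle and cytokinesis genes, Kif20a, Kif4, Nusap1, Prc1, Tpx2 and Ect2, ran from 0.20 (Ect2) to 0.69 (Tpx2) in AAV-hGRB and from 0.18 (Kif4) to 0.63 (Tpx2) in AAV-GFP against PBS. With replicate 3 left out the AAV-GFP values ran from 0.24 (Prc1) to 0.85 (Tpx2). Cdca3, which helps entry into mitosis, stood at 0.60 in AAV-hGRB and 0.56 in AAV-GFP against PBS, and a second Cdca3 probe gave 0.12 and 0.10. The AAV-GFP value of the first Cdca3 probe was 0.30 without replicate 3.

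Top2a, the topoisomerase that untangles sister chromatids, had -3.85, -4.06, -4.01 and -4.59 in AAV-hGRB livers, -4.29, -5.19, -4.56 and -4.58 in AAV-GFP livers, and -4.41, -4.53, -5.21 and -4.93 in PBS livers. It was well above background on all 4 AAV-hGRB arrays and on 2 of 4 in each other group. Its AAV-hGRB level differed by 0.65 (SE 0.26, adjusted p = 0.832, limma) from PBS and by 0.53 (SE 0.26, adjusted p = 0.998) from AAV-GFP, while AAV-GFP over PBS gave 0.12. With slide as a block the AAV-hGRB values were 1.15 over PBS and 0.94 over AAV-GFP. AAV-hGRB shares only slides 5 and 6 with other groups, with 1 array per group on each. Under that block, Top2a and Spag5 were the only mitotic genes higher at an unadjusted p under 0.05 (limma) in AAV-hGRB against PBS. Of all 26592 probes, 389 were higher at that p under the same block.

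**Figure D4:**
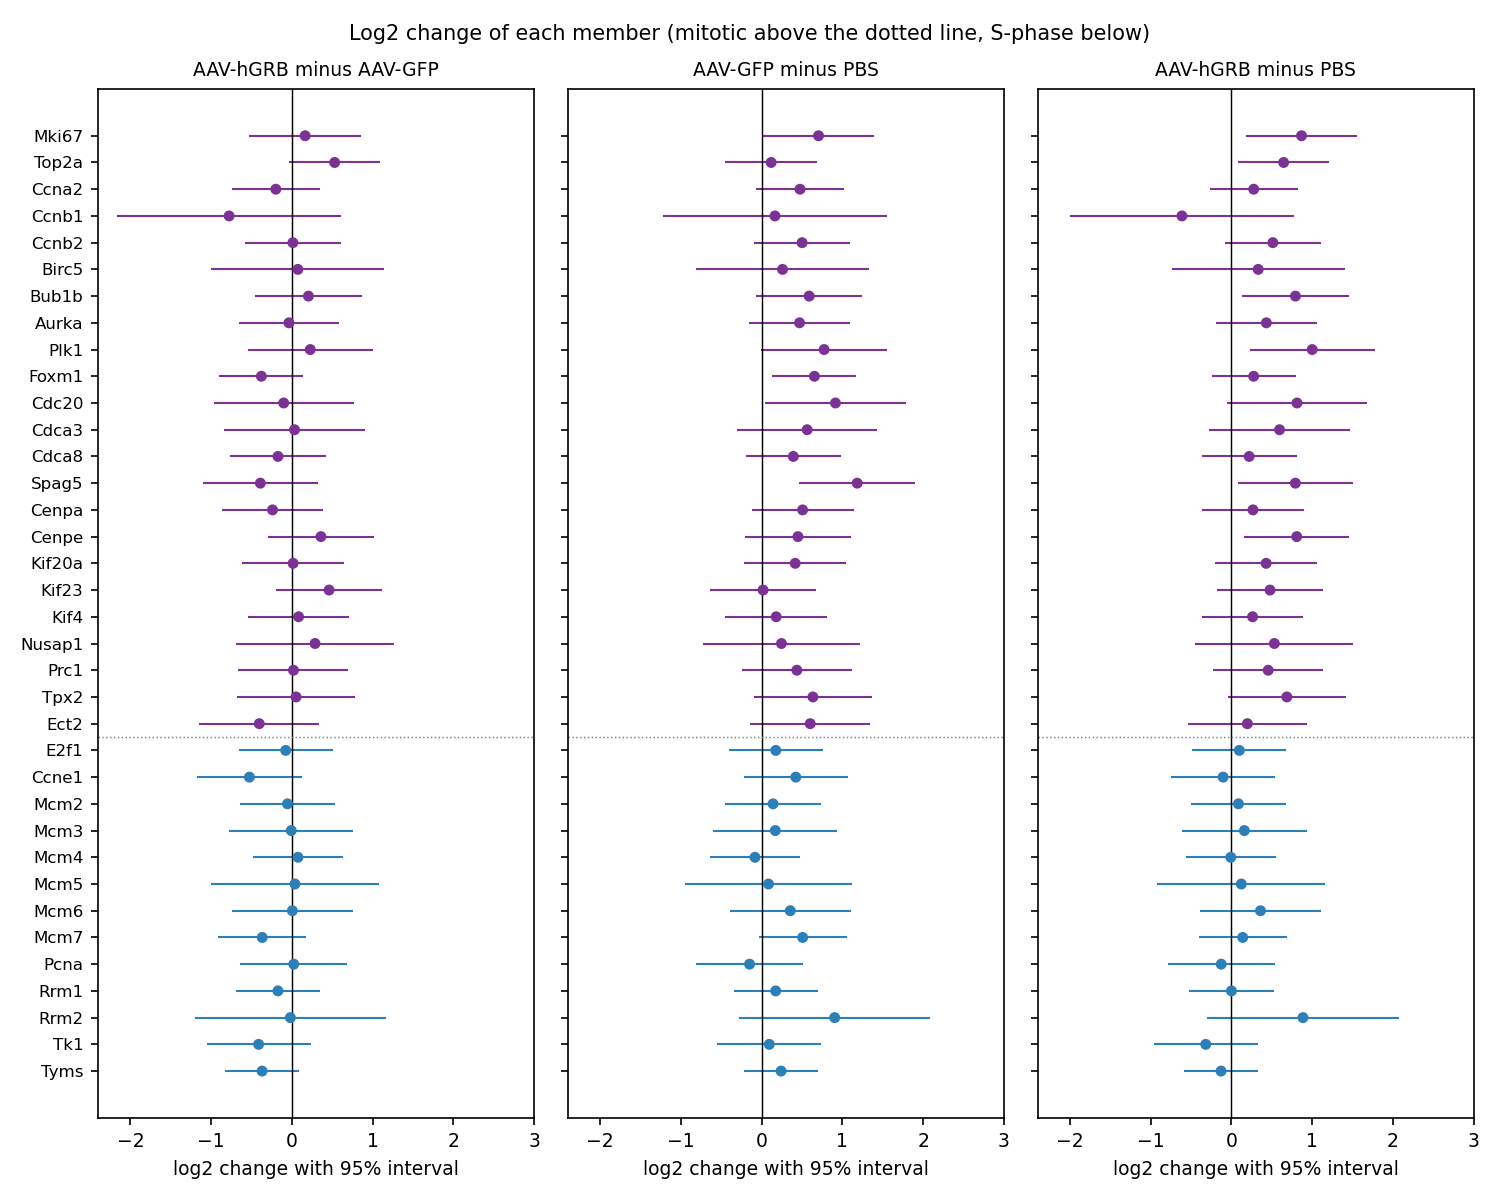
Log2 change of each of the 36 tested members with its 95% interval, for AAV-hGRB minus AAV-GFP, AAV-GFP minus PBS and AAV-hGRB minus PBS, mitotic genes above the dotted line. Nearly all mitotic points lie right of 0 in both comparisons with PBS, with Spag5 at 1.18 and Plk1 at 1.00 farthest out. Among the S-phase points, Rrm2 lies farthest right, at 0.90 in AAV-GFP and 0.89 in AAV-hGRB against PBS.

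The S-phase genes had medians nearer 0 than the mitotic genes in both comparisons with PBS, a contrast that was not tested. Their mean log2 level was 0.58, 0.74, 0.91 and 0.58 in AAV-hGRB livers, 0.63, 1.28, 0.52 and 0.95 in AAV-GFP livers, and 0.07, 0.59, 0.64 and 1.16 in PBS livers. The 3 groups overlapped, and the PBS arrays held both the lowest value (replicate 1) and the second highest (replicate 4). The median log2 change was 0.09 for AAV-hGRB over PBS, 0.17 for AAV-GFP over PBS and -0.05 between the virus groups, with 8, 11 and 4 of 13 genes positive. Of the 13, 0 passed the adjusted threshold and 0 had an unadjusted p under 0.05 in any of the 3 comparisons, where the shares of all probes at that p were 1.84% higher and 1.51% lower between the virus groups, 0.793% and 0.891% for AAV-GFP over PBS, and 2.86% and 2.98% for AAV-hGRB over PBS. With PBS replicate 4 left out, Rrm2 was higher at that p in both virus groups and Mcm7 in AAV-GFP livers. With PBS replicate 3 left out Mcm7 was higher in AAV-GFP than in PBS livers, and with AAV-GFP replicate 1 left out Ccne1 passed it in both comparisons with AAV-GFP livers, where its level was highest.

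The S-phase medians moved with single arrays. Without PBS replicate 1 they were -0.12 in AAV-hGRB and -0.02 in AAV-GFP against PBS, and without PBS replicate 4 they were 0.24 and 0.36. Without AAV-GFP replicate 3 the median was 0.30 for AAV-GFP over PBS and -0.28 between the virus groups. Within slides the AAV-GFP minus PBS median was 0.05, 0.04 and -0.16 on slides 1, 5 and 6, and AAV-hGRB minus PBS was -0.54 and 0.06 on slides 5 and 6. AAV-hGRB minus AAV-GFP was -0.77 on slide 5 and 0.22 on slide 6. With slide as a block the S-phase median turned to -0.22 for AAV-hGRB over PBS, with 2 of 13 genes positive, and was 0.02 for AAV-GFP over PBS, with 7 positive, and -0.08 between the virus groups, with 5 positive.

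At the gate into S phase, E2f1, the activator of replication genes, had -1.85, -1.67, -1.46 and -1.64 in AAV-hGRB livers, -1.39, -1.56, -1.95 and -1.40 in AAV-GFP livers, and -2.45, -1.99, -1.27 and -1.31 in PBS livers. The PBS arrays covered the range of both virus groups, and the changes against PBS were 0.10 in AAV-hGRB and 0.17 in AAV-GFP livers with SE of 0.27, the AAV-GFP value being 0.30 without replicate 3. Ccne1, the cyclin that fires the G1 to S transition with Cdk2, had -1.0, -1.07, -0.63 and -0.63 in AAV-hGRB livers, -1.15, 0.53, -0.21 and -0.41 in AAV-GFP livers, and -0.75, -0.57, -0.69 and -0.91 in PBS livers. AAV-GFP replicate 2 was highest, and the change in AAV-hGRB against AAV-GFP was -0.53 (SE 0.30, adjusted p = 0.998, limma), while a second Ccne1 probe gave 0.38. Ccne2 and the helicase loader Cdc6 were well above background on no array with the brightest probe.

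Of the 6 subunits of the MCM helicase, Mcm2 had -0.50, -0.69, -0.54 and -0.88 in AAV-hGRB livers, -1.30, -0.43, -0.35 and -0.32 in AAV-GFP livers, and -1.23, -0.96, -0.51 and -0.27 in PBS livers. Mcm5 had -0.89, -0.87, -0.02 and -0.62 in AAV-hGRB livers, -0.76, 0.25, -1.94 and -0.11 in AAV-GFP livers, and -1.51, -0.65, -1.02 and 0.29 in PBS livers. Both overlapped across all 3 groups, and the changes against PBS were 0.09 and 0.14 for Mcm2 and 0.12 and 0.08 for Mcm5 in AAV-hGRB and AAV-GFP livers. AAV-GFP replicate 3 was the lowest array for Mcm5, and without it the AAV-GFP change was 0.52, while that of Mcm2 was 0.06.

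Mcm6 had 2.33, 2.58, 3.10 and 2.60 in AAV-hGRB livers, 2.46, 3.19, 1.93 and 3.01 in AAV-GFP livers, and 1.66, 2.28, 2.12 and 3.12 in PBS livers, with changes against PBS of 0.36 in AAV-hGRB and 0.35 in AAV-GFP livers, or 0.59 in AAV-GFP without replicate 3. Mcm7 had 2.77, 2.83, 2.42 and 2.73 in AAV-hGRB livers, 2.83, 2.93, 3.46 and 2.99 in AAV-GFP livers, and 1.92, 2.43, 2.95 and 2.90 in PBS livers. Every AAV-hGRB array was below every AAV-GFP array for Mcm7 (by less than rounding shows at 2.83), the lone member of 36 with groups free of overlap in any comparison, against 2.98% of all probes in that one, and the difference was -0.37 (adjusted p = 0.998, limma), or -0.23 without AAV-GFP replicate 3. Over PBS, Mcm7 stood at 0.14 in AAV-hGRB and 0.51 in AAV-GFP livers, with an SE of 0.25. Mcm3 and Mcm4 differed from PBS by 0.16 and -0.01 in AAV-hGRB and by 0.17 and -0.08 in AAV-GFP livers, and a second Mcm3 probe turned the sign in both. The AAV-GFP values were 0.00 for Mcm3 and 0.10 for Mcm4 when replicate 3 was left out.

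Pcna, the sliding clamp of the replication fork, had 2.08, 2.46, 2.74 and 2.65 in AAV-hGRB livers, 2.49, 3.07, 1.54 and 2.73 in AAV-GFP livers, and 2.50, 2.59, 2.37 and 2.97 in PBS livers. Its changes against PBS were -0.13 (interval -0.79 to 0.53) in AAV-hGRB livers and -0.15 (-0.81 to 0.51) in AAV-GFP livers. Without AAV-GFP replicate 3, the lowest array, the AAV-GFP value was 0.16.

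Among the enzymes that make deoxynucleotides, Rrm2, the regulated subunit of ribonucleotide reductase, had -3.12, -2.34, -2.26 and -3.76 in AAV-hGRB livers, -2.66, -2.09, -3.72 and -2.94 in AAV-GFP livers, and -5.13, -3.15, -4.17 and -2.57 in PBS livers. It had the largest S-phase change against PBS, 0.89 in AAV-hGRB and 0.90 in AAV-GFP livers, with an SE of 0.54 each. The PBS arrays alone spanned from -5.13 to -2.57, and without PBS replicate 1, the lowest, the Rrm2 values were 0.43 and 0.45. Rrm1, the large subunit, differed by 0.00 in AAV-hGRB and 0.17 in AAV-GFP livers, or by 0.33 in AAV-GFP without replicate 3.

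Tk1, the thymidine salvage kinase, had 2.45, 2.53, 2.81 and 2.70 in AAV-hGRB livers, 3.22, 3.59, 2.75 and 2.57 in AAV-GFP livers, and 2.35, 2.64, 3.18 and 3.59 in PBS livers. Its change was -0.41 in AAV-hGRB against AAV-GFP and -0.32 against PBS, with SE of 0.30. Tyms, the thymidylate synthase, had 1.87, 2.08, 1.95 and 1.70 in AAV-hGRB livers, 2.04, 2.64, 2.31 and 2.08 in AAV-GFP livers, and 1.67, 1.99, 2.03 and 2.42 in PBS livers. The AAV-hGRB and AAV-GFP groups met at 2.08 and 2.04, and the difference was -0.37 with an SE of 0.21, with 2 further probes at -0.58 and -0.40.

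Set against each other array by array, the mean mitotic level minus the mean S-phase level was -2.87, -2.69, -2.86 and -3.08 in AAV-hGRB livers, -2.68, -3.20, -2.62 and -3.55 in AAV-GFP livers, and -3.03, -3.19, -3.42 and -3.43 in PBS livers. Only the differences between groups bear reading, since the probes of the 2 gene sets differ. This measure overlapped between the groups too, with means of -2.88 ± 0.16 in AAV-hGRB livers, -3.01 ± 0.44 in AAV-GFP livers and -3.27 ± 0.19 in PBS livers (SD, n = 4 each).

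Mitotic genes varied together from array to array. Among the 15 that were well above background on all 12 arrays, deviations from the group means had a median pairwise correlation of 0.65, and all 105 pairs were positive. The 12 S-phase genes so detected had a median of 0.45 with 60 of 66 pairs positive, and pairs of a mitotic and an S-phase gene had 0.28. These correlations over 12 arrays share the array, its labelling and its scaling, and are a description. By correlation with the mean of the mitotic genes over 12 arrays, the 5 most similar genes outside the list were D17H6S56E-5 (0.93), Cdca5 (0.92), which protects sister chromatid cohesion, 1190002F15Rik (0.85), Ube2t (0.85), a ubiquitin-conjugating enzyme of DNA crosslink repair, and Chek2 (0.85), a DNA damage kinase.

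Other cell cycle genes were read from lists of the same pathways, and 0 genes of these lists passed the adjusted threshold. Of 31 further mitotic genes, 21 were positive in AAV-hGRB and 27 in AAV-GFP against PBS, with medians of 0.16 and 0.24, and 12 were positive in AAV-hGRB against AAV-GFP, with a median of -0.06. Unadjusted p was under 0.05 with a higher level for 5 of them in AAV-hGRB against PBS (2.86% of all probes) and for 2, Kifc1 and Ckap2, in AAV-GFP against PBS (0.793%). Leaving out single arrays gave 3 to 7 and 1 to 5 such genes, with 3 in AAV-hGRB against PBS without any one of AAV-hGRB replicates 1, 2 and 3 and PBS replicate 1. In AAV-GFP against PBS there were 5 without PBS replicate 4, 4 without AAV-GFP replicate 4, and 1 without any one of AAV-hGRB replicates 1 and 3 and PBS replicates 1 and 3. With slide as a block there were 0 such genes in either comparison with PBS, against 389 (AAV-hGRB) and 133 (AAV-GFP) of all 26592 probes. The medians were then 0.05 in AAV-hGRB and 0.30 in AAV-GFP against PBS, with 17 and 24 of 31 genes positive. Kifc1, a minus-end kinesin, had changes of 0.75 and 0.50 against PBS, and every AAV-hGRB array exceeded every PBS array. Of the 31 genes, 2, Kifc1 and Smc2, had groups free of overlap in that comparison, against 4.59% of all probes. Ckap2, a spindle protein, was well above background on 0 PBS arrays and passed the filter only through the virus groups. Without it, 4 of 30 genes in AAV-hGRB and 1 in AAV-GFP against PBS were higher at an unadjusted p under 0.05. Leaving out single arrays made these counts 2 to 6 and 0 to 4. With the PBS arrays set as for Bub1b, the Ckap2 mean was 1.43-fold higher in AAV-hGRB and 1.44-fold higher in AAV-GFP livers. The limits given for Bub1b hold here too. Limma's adjusted p was 0.69 and 0.999. Smc2, of condensin, stood at 0.89 in AAV-hGRB against PBS. Cdk1, the mitotic kinase, had changes of 1.09 in AAV-hGRB and 0.69 in AAV-GFP against PBS with an SE of 0.68, or 1.18 in AAV-GFP without replicate 3.

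Of 28 further replication genes, 14 were positive in AAV-hGRB and 22 in AAV-GFP against PBS, with medians of -0.00 and 0.21. With slide as a block 10 and 15 were positive, with medians of -0.11 and 0.07. Unadjusted p was under 0.05 with a higher level for 3 in AAV-hGRB over PBS, Cdc45, Cdt1 and Uhrf1, against 2.86% of all probes, and for 1 without any one of AAV-hGRB replicates 2 and 3 and PBS replicate 3. Cdc45, of the replicative helicase, was well above background on 2 AAV-hGRB, 2 AAV-GFP and 0 PBS arrays, so it passed the filter only through the virus groups, and no fold is given for it. Without Cdc45, 2 of 27 replication genes were higher at an unadjusted p under 0.05 in AAV-hGRB against PBS. Cdt1, which loads the MCM helicase with Cdc6, stood at 0.51 and 0.46 over PBS. Uhrf1, which carries DNA methylation through replication, had -1.97, -2.57, -2.05 and -3.44 in AAV-hGRB livers, -3.03, -2.28, -2.42 and -3.22 in AAV-GFP livers, and -6.05, -3.59, -3.70 and -3.32 in PBS livers. Every AAV-GFP array exceeded every PBS array for Uhrf1 alone of the 28, where 0.94% of all probes had groups free of overlap. PBS replicate 1 lay far below the rest. The Uhrf1 differences over PBS were 1.66 in AAV-hGRB livers and 1.43 in AAV-GFP livers, with an SE of 0.55. Without PBS replicate 1 the Uhrf1 values were 1.03 and 0.80. Mcm10, an initiation factor, stood at -0.56 between the virus groups (SE 0.23, adjusted p = 0.998, limma). Against PBS it stood at -0.37 in AAV-hGRB livers, with every AAV-hGRB array below every PBS array, against 4.59% of all probes without overlap.

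Of 15 cell cycle transcription factors, 9 were positive in AAV-hGRB and 12 in AAV-GFP against PBS, with medians of 0.07 and 0.23. Mybl2, the B-Myb factor of the mitotic gene programme, ran the other way, at -0.59 in AAV-hGRB and -0.49 in AAV-GFP against PBS with an SE of 0.36, or -0.81 in AAV-GFP without replicate 3. Lin9, a MuvB subunit, stood at 0.60 in AAV-GFP against PBS. It alone of the 15 had no overlap between these groups, against 0.94% of all probes. E2f5 stood at -0.43 in AAV-hGRB over AAV-GFP. Of 11 G1 cyclins and kinases, 6 and 5 were positive in AAV-hGRB and AAV-GFP against PBS, and Ccnd1, cyclin D1, had differences of 0.18 and 0.26 with an SE of 0.40, while Cks1b, a subunit of Cdk complexes, stood at -0.50 and -0.43.

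Of 15 cell cycle inhibitors, 8 and 6 were positive against PBS and 11 in AAV-hGRB against AAV-GFP. Cdkn1a, the p21 inhibitor of cyclin-dependent kinases, had -0.65, 0.19, 0.24 and 0.38 in AAV-hGRB livers, -2.53, -2.63, -1.59 and -0.59 in AAV-GFP livers, and -2.0, -2.12, -1.83 and -0.35 in PBS livers. In AAV-hGRB livers 3 of 4 arrays exceeded all others. The AAV-hGRB level differed by 1.88 from AAV-GFP (SE 0.49, adjusted p = 0.965, limma) and by 1.61 from PBS (adjusted p = 0.733), with -0.26 for AAV-GFP over PBS. Without AAV-GFP replicate 3 the first of these was 1.96. Chek1, a checkpoint kinase, was well above background on 0 PBS arrays and passed the filter only through the virus groups. With the PBS arrays set as for Bub1b, the Chek1 mean was 1.18-fold higher in AAV-hGRB and 1.35-fold higher in AAV-GFP livers, with the same limits. Adjusted p was 0.842 and 0.999 (limma). Tob1, an antiproliferative protein, stood at 0.45 and 0.64 over PBS. Ccng1, another p53 target, had 0.53 over AAV-GFP, or 0.07 without replicate 3. Of 13 p53 targets, 12 were positive against AAV-GFP and 12 against PBS in AAV-hGRB livers, with medians of 0.53 and 0.51. Eda2r among them was well above background on no PBS array and passed the filter only through the virus groups. Without it, 11 of 12 were positive in each of these comparisons, with medians of 0.46 and 0.50.

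Markers of other cells were read because immune cells and red cell precursors also divide. The macrophage list had 12 of 12 genes positive in AAV-hGRB and 11 of 12 in AAV-GFP against PBS, with mean levels of 2.13 to 3.36 in AAV-hGRB livers, 2.19 to 2.95 in AAV-GFP livers and 1.39 to 2.78 in PBS livers. With slide as a block, 10 macrophage genes were positive in AAV-hGRB and 1 in AAV-GFP against PBS, with medians of 0.08 and -0.23. Leaving out single arrays gave 12 positive in AAV-hGRB and 2 to 12 in AAV-GFP against PBS. T and NK cell genes were positive for 8 and 4 of 13 against PBS, with mean levels of -2.31 to -1.58 in AAV-hGRB livers, -2.67 to -2.14 in AAV-GFP livers and -3.03 to -2.0 in PBS livers. B and plasma cell genes were positive for 3 and 2 of 6, at -2.52 to -2.15, -3.06 to -2.03 and -3.07 to -1.98 in the same groups. Neutrophil genes were negative for 6 of 6 in both comparisons with PBS, and erythroid genes were negative for 7 of 7 in AAV-hGRB and 6 of 7 in AAV-GFP against PBS.

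Neutrophil mean levels were -2.30 to -1.78 in AAV-hGRB livers, -2.53 to -1.80 in AAV-GFP livers and -1.66 to -1.35 in PBS livers, and erythroid ones 1.03 to 1.33, 1.38 to 1.52 and 1.2 to 1.97. The erythroid genes Epb4.2 and Eraf were well above background on no array. Hepatocyte genes were positive for 3 of 9 in AAV-hGRB and 5 of 9 in AAV-GFP against PBS, with medians of -0.14 and 0.02. Interferon-induced genes were positive for 16 of 16 in AAV-hGRB livers in both comparisons, with a median of 1.66 in each, and for 10 of 16 in AAV-GFP against PBS, with a median of 0.10. Without AAV-GFP replicate 3 the interferon genes were positive for 6 of 16 in AAV-GFP against PBS, with a median of -0.11, T and NK cell genes for 2 of 13 and B and plasma cell genes for 0 of 6. Endothelial, stellate cell and cholangiocyte medians against PBS were 0.12, 0.02 and -0.25 in AAV-hGRB and -0.02, -0.18 and 0.26 in AAV-GFP livers. The part of any of these cells in the mitotic values was not tested.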

How the data were processed

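Liver RNA of 12 samples was hybridised to one-colour Agilent arrays, from 500 ng of total RNA labelled with Cy3, per the labels' protocols. The deposited files give an intensity per spot. Per the file headers, the processed intensity is background-subtracted and detrended, with a surrogate value for spots not above background, and the submitters' processing notes name Agilent Feature Extraction 9.5. Its median over spots was 30.3 to 72.3 per array. The deposited matrix held the same intensity values exactly.

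From these deposited values, log2 intensity was taken, spots of a probe were averaged, control spots were left out and the 75th percentile of each array was subtracted. Of 41174 probes, 22944 were named through RefSeq by their systematic name, 124 by another accession, and 18106 kept their design name. Probes well above background on at least 4 of 12 arrays (26592) entered 1 limma fit (limma 3.58.1, R 4.3.3) with 3 groups. P-values are two-sided and were adjusted by Benjamini-Hochberg across these probes, with a threshold of 0.05. Gene sets are described by counts and medians, without a test. The fit was tested on simulated data. The number of arrays limits the precision.

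The members and all gene lists were chosen with earlier results of these data known. Values of every array are given for 16 members fixed by name and for the 3 of each set with the lowest unadjusted p per comparison. Genes outside the set are Cdk1, Ccnd1, Mybl2, Cdkn1a, Ccng1 and up to 3 per pathway list by the same p.

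The alternatives were other scalings, background corrections and filters, slide or replicate number as a block, within-slide differences, array weights, fits of 8 arrays, averaged probes and leaving out each array.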

Additional observations from a re-analysis of the deposited data

Results flagged for a closer look

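In 8 of 114 groups of 4 arrays (36 members and the 2 set means in 3 groups), 1 array lay far from the other 3, with a gap that took most of the group's range. Chance flags about 1 in 20 such groups. In PBS livers the array was replicate 4 and lay high: Aurka was at -0.49 with the others from -1.55 to -1.46, Nusap1 at -3.88 with the others from -4.74 to -4.70, and Mcm4 at 1.82 with the others from 1.28 to 1.35. In AAV-GFP livers replicate 4 lay low for Ccnb2, at -1.30 with the others from -0.30 to -0.17, and for Plk1, at -3.27 with the others from -1.97 to -1.79. Replicate 1 of AAV-GFP lay low for Ect2, at -2.21 with the others from -1.36 to -1.19, and for Mcm2, at -1.30 with the others from -0.43 to -0.32. In AAV-hGRB livers replicate 2 lay high for Rrm1, at 1.07 with the others from 0.68 to 0.73.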

How the results depend on the processing

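The count of probes past the adjusted threshold stayed at 0 in the 3 comparisons under every alternative fitted across all probes except array weights, where AAV-hGRB against PBS gave 67, with 56 higher and 11 lower, none of them a member. Within-slide differences and averaged probes give no such count. Within slide 5 the mitotic median was -0.45 in AAV-hGRB against AAV-GFP and 0.051 in AAV-hGRB against PBS, and the S-phase median was -0.77 and -0.54. Within slide 6 the mitotic median was 0.96 for AAV-hGRB over PBS and 0.79 for AAV-GFP over PBS. These slides hold 1 array per group, and the cause was not tested. Arrays of the same replicate number did not deviate together throughout, with correlations from -0.43 to 0.59 and 5 of 12 over 0.1. The labels do not say whether the numbers pair the samples. With 4 arrays per group these 12 correlations cannot exclude it. Each number holds 1 array of every group, so a replicate block cannot move the set medians, which stood at 0.02, 0.47 and 0.48 for the mitotic and -0.05, 0.17 and 0.09 for the S-phase genes (between the virus groups, for AAV-GFP over PBS and for AAV-hGRB over PBS), and the count of probes called was 0. Leaving out each array gave S-phase medians of -0.28 to 0.00, -0.02 to 0.36 and -0.12 to 0.24 in the same comparisons. Normexp background correction lowered the mitotic medians against PBS to 0.31 in AAV-hGRB and 0.28 in AAV-GFP livers. Mitotic genes higher at an unadjusted p under 0.05 (limma) numbered 6 in AAV-hGRB and 4 in AAV-GFP against PBS, beside 760 and 211 of 26592 probes. With normexp they numbered 0 and 0 (329 and 45 of all probes), and with slide as a block 2 and 7 (389 and 133). Array weights gave 11 and 4 (1706 and 452), and only the 8 arrays compared gave 10 and 2 (1099 and 116). Median scaling gave 4 and 2 (1016 and 366). The stricter filter on dim probes, which tested 15 of the genes, gave 3 and 4 (614 and 172 of 20065 probes). The counts over all probes thus moved with the setting too. Setting the within-slide values aside, the sign of the change turned under at least 1 alternative for 7 of 23 mitotic genes for AAV-GFP over PBS, 4 for AAV-hGRB over PBS and 17 between the virus groups, and for 7, 10 and 8 of 13 S-phase genes. No member reached the adjusted threshold under any alternative fitted. Dim probes limit Top2a, Ccnb1, Bub1b, Spag5, Kif23, Kif4, Nusap1, Tpx2 and Rrm2, which were well above background on 5 to 10 of 12 arrays.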
